A study of Mus musculus with 24 samples.

Results

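The glutamate receptors and the postsynaptic scaffold genes of the mouse nucleus accumbens were followed through 24 libraries of bulk messenger RNA. The 37 genes were taken by symbol, as the rows of a count table of 55401 gene IDs whose Ensembl ID belongs to a fixed list of receptor subunits, scaffold proteins and kinase subunits. All 37 passed the filter on low counts. They comprise 4 AMPA receptor subunits, 5 kainate receptor subunits, 7 NMDA receptor subunits, the delta receptor Grid1, 6 metabotropic receptors, 4 membrane-associated guanylate kinases (Dlg1 to Dlg4), 3 SAPAP proteins (Dlgap1 to Dlgap3), 3 Shank proteins, 2 Homer proteins and 2 subunits of calcium/calmodulin-dependent kinase II.

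The libraries form 4 groups of 6. SNI Mef2c mice had their left sciatic nerve injured by the tibial spared nerve procedure (SNI), a surgical model of chronic neuropathic pain, and received AAV8-hSyn-Mef2c-Egfp in the accumbens. SNI Gfp mice had the same injury and received AAV8-hSyn-Egfp. Sham Mef2c and Sham Gfp mice had the nerve exposed and left intact, and received the same vectors, Mef2c with Egfp or Egfp alone. All 4 groups therefore carried Egfp, both vectors were given on both sides, and the hSyn promoter restricts expression to neurons. The mice were C57BL/6J or DBA/2J and 8 to 9 weeks old, and neither the strain nor the sex behind each library is given in the sources used here. Punches from both hemispheres were used. Mice are not named for single libraries, so the p-values below measure the spread between these libraries. Mef2c itself averaged 9.22 log2 CPM (counts scaled to library size) in SNI Mef2c and 7.36 in SNI Gfp (exact permutation test, two-sided, p = 0.00216, the smallest it can give, n = 6 each). In the libraries labelled Sham Mef2c it averaged 7.77 log2 CPM, against 7.39 in Sham Gfp, and the exact permutation test did not separate them (p = 0.264, n = 6 each).

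Glutamate released by cortical, thalamic, hippocampal and amygdalar axons opens AMPA, kainate and NMDA receptors on the spines of medium spiny neurons, the GABAergic projection neurons that make up most of the accumbens. Metabotropic receptors, which act through G proteins, modulate release and excitability. The receptors are anchored by Dlg proteins such as PSD-95, which bind SAPAP proteins, which in turn bind Shank and, through it, Homer. Accumbens neurons are themselves almost without Slc17a7, the vesicular glutamate transporter VGLUT1 of cortical pyramidal cells, and its messenger RNA is used as a marker of cortical glutamatergic neurons.

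Slc17a7 varied widely among the punches. Its lowest, median and highest levels were 4.10, 166 and 1175 CPM in SNI Mef2c, 1.60, 5.26 and 558 CPM in SNI Gfp, 2.37, 7.14 and 75.9 CPM in Sham Mef2c, and 8.50, 107 and 318 CPM in Sham Gfp. It was lower in Sham Mef2c than in Sham Gfp (exact permutation test on log2 CPM, two-sided, p = 0.0433, n = 6 each), and the other group comparisons of it gave p between 0.0801 and 0.158 by the same exact test. The 14 genes of a cortical list summed to between 358 and 2719 CPM in SNI Mef2c, 305 and 1431 in SNI Gfp, 301 and 539 in Sham Mef2c, and 301 and 947 in Sham Gfp, with Neurod6 at 0 in at least 1 library of Sham Mef2c. The 12 striatal markers, among them Drd1, Drd2 and Ppp1r1b, were present in every library, and their sum lay between 1934 and 6244 CPM in SNI Mef2c, 2603 and 5988 in SNI Gfp, 2083 and 5509 in Sham Mef2c, and 2198 and 4994 in Sham Gfp. SNI Mef2c library 1 had the highest Slc17a7 of all and the lowest mean of striatal markers, and it held the highest level of its group for Gria2, Gria3, Grik5, Grin2a, Dlgap3 and Camk2a, among other genes described below. Total counts lay between 25477019 and 36570108 per library.

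Promoter sequences were looked at because many of the genes varied together with Slc17a7. Of the 37 genes, 24 were in the RefSeq promoter table (GRCm38.p6), with 37 windows of 250 bases before a transcript start. The 3 windows printed belong to Grm2, which had the steepest slope on Slc17a7 of all 37 genes, and to Dlgap3 and Grin2c, which had the smallest p-values among the receptor and scaffold genes found in the table. All of them are free of annotated exons. Capitals mark matches to the GC box GGGCGG or to the E-box CAGATG on either strand.
Grm2 promoter, chr9:106656110-106656359, minus strand: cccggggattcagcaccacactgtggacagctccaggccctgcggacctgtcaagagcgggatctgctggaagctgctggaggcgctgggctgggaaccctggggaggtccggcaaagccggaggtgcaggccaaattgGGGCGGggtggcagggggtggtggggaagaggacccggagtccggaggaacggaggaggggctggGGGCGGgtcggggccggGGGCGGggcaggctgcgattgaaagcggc
Grin2c promoter, chr11:115267244-115267493, minus strand: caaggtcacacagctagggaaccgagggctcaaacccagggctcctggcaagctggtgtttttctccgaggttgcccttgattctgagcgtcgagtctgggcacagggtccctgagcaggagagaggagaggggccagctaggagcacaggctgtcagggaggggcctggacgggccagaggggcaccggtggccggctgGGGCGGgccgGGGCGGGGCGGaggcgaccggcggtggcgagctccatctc
Dlgap3 promoter, chr4:127172630-127172879, plus strand: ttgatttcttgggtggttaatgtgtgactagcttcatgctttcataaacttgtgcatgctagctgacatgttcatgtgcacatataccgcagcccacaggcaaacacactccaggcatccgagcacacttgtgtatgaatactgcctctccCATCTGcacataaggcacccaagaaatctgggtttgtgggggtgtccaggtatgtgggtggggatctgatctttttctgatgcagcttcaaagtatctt
The Grm2 and Grin2c windows hold 3 GC boxes each, and 2 of those of Grin2c share bases. The Dlgap3 window holds 1 E-box, read on the opposite strand, and no GC box. GGGCGG occurred in 17 of the 37 windows of these genes and in 32.7% of all 32851 windows of the same length. CAGATG occurred in 3 of the 37 windows and in 14.4% of all, the cyclic AMP response element TGACGTCA in 0 of the 37 and in 1.55% of all, and the MEF2 consensus in 1 of the 37, a window of Dlg1, and in 2.92% of all. Both strands were read for each motif.

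**Figure D1:**
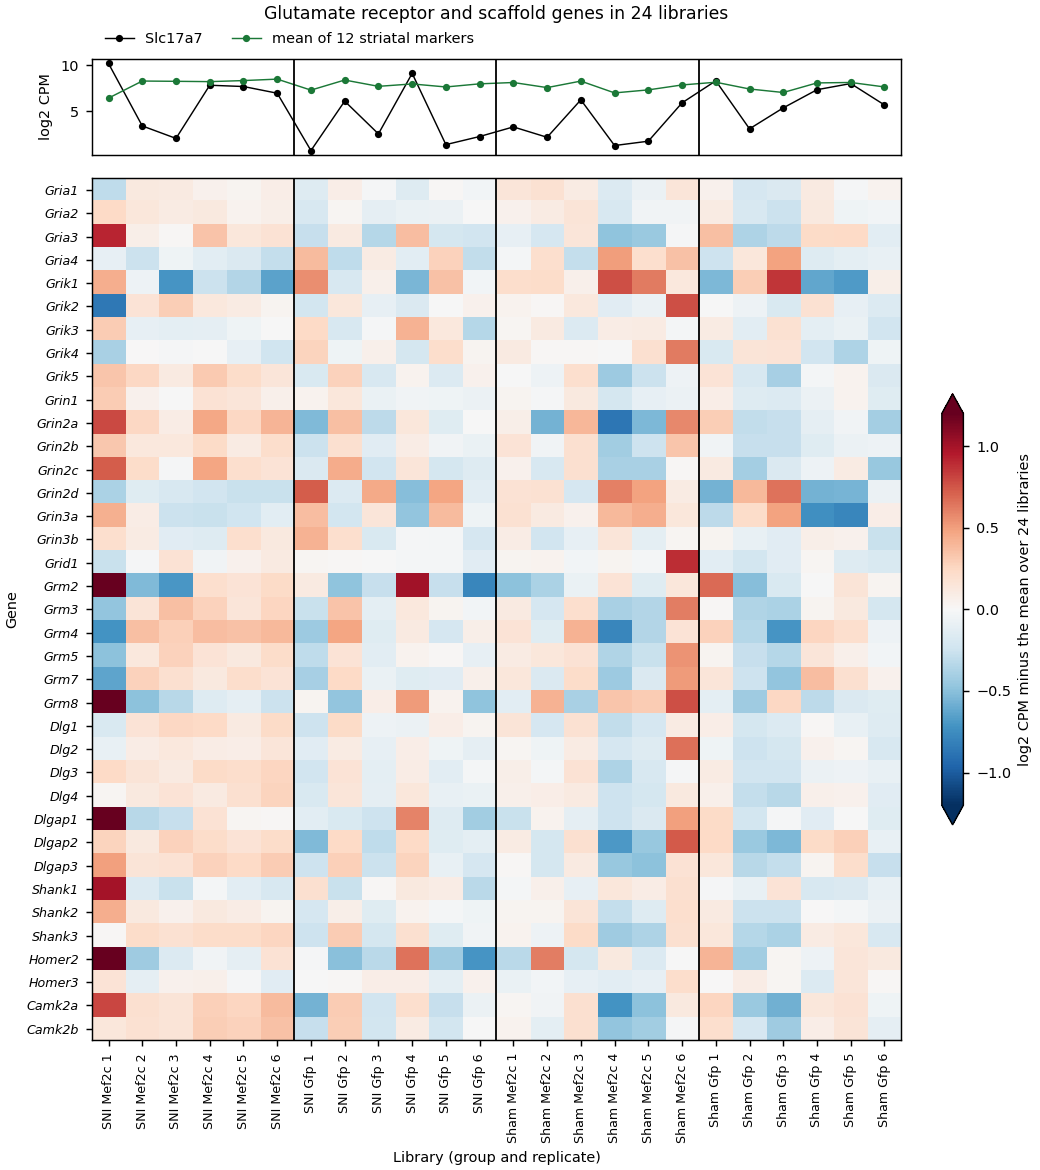
Levels of the 37 genes in the 24 libraries, drawn as log2 CPM minus the gene's mean over all libraries (colour, limited at the ends of the scale). Libraries stand in columns by group, SNI Mef2c and SNI Gfp left of Sham Mef2c and Sham Gfp, and genes stand in rows by family. SNI Mef2c library 1 stands apart in many rows, with Grm2 at 28.1 CPM and Grm4 at 65.2 CPM.

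The abundance of the genes differed by orders of magnitude. On the scale of mean CPM per kb of exon over 24 libraries, Camk2a, the alpha subunit of the kinase that is a main protein of the postsynaptic density, stood highest at 213, followed by Gria1 at 138, which codes for the AMPA subunit GluA1, and Camk2b at 107. Dlgap3, the SAPAP protein typical of striatum, had 71.9 and Grik5, a kainate subunit, 57.0. Among the NMDA subunits the obligatory Grin1 stood at 38.9, Grin2b at 16.3, Grin2c at 11.3, Grin2d at 7.41, Grin3a at 5.91, Grin2a at 5.85 and Grin3b at 0.790 on the same scale. Among the metabotropic receptors Grm7 and Grm5, at 49.2 and 47.3, were above Grm3 at 31.6 and Grm4 at 18.5, while Grm2 had 1.61 and Grm8 1.42. The Homer genes on the list were low, with 3.68 for Homer3 and 2.06 for Homer2. Reads in introns appear to have been counted too, so this scale may overstate genes with long introns such as Dlg2 and Grm7, whose spans are 1973 and 922 kb. Gria1 spans 319 kb. The order also depends on the exon length divided by. Before that division Gria1 had 834 and Gria2 826 CPM, and Grin2a had 105 and Grin2c 57.1 CPM.

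Some values may share reads with a neighbour, since the counts appear to cover each gene from start to end. Whether reads of both strands were counted was not tested. Tmem259, which overlaps Grin3b, and Ddx49, which overlaps Homer3, had more counts than the genes they overlap, and the values of Grin3b and Homer3 are uncertain for that reason. Kdelr1, which overlaps Grin2d, had 83.7% of the count of Grin2d, and the antisense transcript Grin1os had 52.0% of that of Grin1. Their part in the values of Grin2d and Grin1 was not tested. In bulk tissue, fewer cells of a type and less RNA per cell cannot be told apart.

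The first question was whether nerve injury changed these genes under the control vector. No gene of the 37 passed the threshold of an adjusted p under 0.05 between SNI Gfp and Sham Gfp (edgeR's quasi-likelihood test, Benjamini-Hochberg adjustment over 23738 genes). Over all genes tested the share called was 0%, with 2928 genes at an unadjusted p under 0.05, of which 0 were on the list. The median log2 fold change of the 37 genes was 0.058, against 0.010 over all genes, and 26 of the 37 were positive. With Slc17a7 as a covariate that median was 0.14, with the share of counts in long genes as a covariate it was -0.026, and 0 passed in either fit. With 1 library left out in turn it lay between 0.019 (SNI Gfp library 2 left out) and 0.097 (Sham Gfp library 1 left out). Sums of the interferon, microglial and astrocyte lists tended lower in SNI Gfp than in Sham Gfp, with overlap. Medians were higher in SNI Gfp for the oligodendrocyte (3340 against 2788 CPM), septal (155 against 137 CPM) and vascular lists (169 against 159 CPM). The 10 interferon-response genes summed to between 33.2 and 411 CPM in SNI Gfp (median 63.8) and between 200.2 and 697 CPM in Sham Gfp (median 459), the 6 microglial markers to between 293 and 679 CPM in SNI Gfp and between 501 and 863 CPM in Sham Gfp, and the 6 astrocyte markers to between 1304 and 1817 CPM in SNI Gfp and between 1442 and 2022 CPM in Sham Gfp. Their part in the values of the receptor genes was not tested. The 3 smallest p-values belonged to Grik4, Grin2b and Grin2d.

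Grik4, a kainate subunit of high affinity, had a lowest, median and highest level of 45.3, 54.3 and 63.1 CPM in SNI Gfp and of 40.7, 48.6 and 58.9 CPM in Sham Gfp. The groups overlapped, and the log2 fold change was 0.13 (SE 0.11, adjusted p = 0.736 by edgeR). Grin2b, the NMDA subunit GluN2B, had 336, 385 and 459 CPM in SNI Gfp and 330, 372 and 390 CPM in Sham Gfp, with a log2 fold change of 0.11 whose 95% interval ran from -0.092 to 0.32. Grin2d, the NMDA subunit GluN2D, which in forebrain is found mainly in interneurons, had 33.2, 54.2 and 78.5 CPM in SNI Gfp and 31.9, 38.7 and 74.6 CPM in Sham Gfp. Its levels spanned nearly the same range in both groups (log2 fold change 0.24, 95% interval -0.21 to 0.69). Grin2d passed under limma-voom with quality weights (log2 fold change 0.57, SE 0.18, adjusted p = 0.0464).

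The second question was whether the Mef2c vector changed them in mice without injury. No gene of the 37 passed between Sham Mef2c and Sham Gfp, where 9.41% of all genes tested did (2233 of 23738, with 1.48% higher and 7.93% lower, edgeR's quasi-likelihood test). The median log2 fold change of the 37 genes was 0.056, against 0.019 over all genes, with 28 of the 37 positive. At an unadjusted p under 0.05 there were 5025 of the 23738 genes and 2 of the 37, Grid1 and Grik4. With 1 library left out in turn there were between 1 and 6 of the 37, the 6 without Sham Gfp library 3. In this comparison Slc17a7 was lower by the exact test given above, without adjustment, and did not pass by edgeR (log2 fold change -2.43, SE 1.39, adjusted p = 0.338). The sums of 2 other lists did not overlap. The 10 interferon-response genes summed to between 28.8 and 42.2 CPM in Sham Mef2c and between 200.2 and 697 CPM in Sham Gfp, and the 6 microglial markers to between 281 and 341 CPM in Sham Mef2c and between 501 and 863 CPM in Sham Gfp. The astrocyte markers summed to between 1325 and 1497 CPM in Sham Mef2c and between 1442 and 2022 CPM in Sham Gfp. As above, their part was not tested.

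Grid1 codes for the delta receptor GluD1, a synaptic organiser that binds cerebellins. Its lowest, median and highest levels were 108, 112 and 203 CPM in Sham Mef2c and 94.3, 99.6 and 112 CPM in Sham Gfp. Sham Mef2c library 6 alone stood at 203 CPM, and the others of that group reached 114 CPM. The log2 fold change was 0.33 (SE 0.12, adjusted p = 0.0879 by edgeR). Grik4 had 52.5, 54.9 and 80.8 CPM in Sham Mef2c and 40.7, 48.6 and 58.9 CPM in Sham Gfp, with its highest value again in library 6 of Sham Mef2c (log2 fold change 0.25, SE 0.11, adjusted p = 0.199 by edgeR). Dlg2, which codes for the scaffold PSD-93, had 459, 525 and 839 CPM in Sham Mef2c and 445, 488 and 548 CPM in Sham Gfp, and library 6 of Sham Mef2c was once more the highest (log2 fold change 0.19, SE 0.11, adjusted p = 0.307 by edgeR). In that library genes with a span of at least 100 kb, without the 37 genes, took 24.4% of the counts, and in the other 23 libraries between 21.1% and 22.96%. Whether that share plays a part in these values was not tested.

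Adding terms for tissue content moved this comparison. With Slc17a7 as a covariate, Grin2b was higher in Sham Mef2c (log2 fold change 0.29, SE 0.080, adjusted p = 0.0264 by edgeR) and 1 of the 37 genes passed, against 8.49% of all genes. With Slc17a7 and the mean of the striatal markers as covariates, 8 of the 37 passed and all were higher in Sham Mef2c, against 11.9% of all genes. These were Grm8, Shank1, Grin2b, Dlg4, Dlgap1, Dlg3, Shank3 and Dlg2, with log2 fold changes between 0.14 for Dlg3 and 0.61 for Grm8, a presynaptic metabotropic receptor. The fit with both covariates used all 24 libraries and was not repeated without SNI Mef2c library 1. With Slc17a7 and the share of long genes as covariates, 0 of the 37 passed. The median log2 fold change of the 37 genes was 0.18 with the Slc17a7 covariate alone and -0.053 with the long-gene covariate alone.

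The third question was whether the Mef2c vector changed them after injury. No gene passed. Between SNI Mef2c and SNI Gfp 30 of the 37 genes had a positive log2 fold change, with a median of 0.15 against -0.00044 over all genes, 13 had an unadjusted p under 0.05, and 0 passed after adjustment (edgeR's quasi-likelihood test). Over all genes tested the share called was 0.00421%, or 1 of 23738, and 3383 genes had an unadjusted p under 0.05. Leaving out SNI Mef2c library 1 or 4 brought the count of 13 to 6. Of the SNI Gfp libraries, leaving out library 1 or 3 brought it to 3, library 5 to 4 and library 6 to 6. It was 8 with the replicate block or with library size alone as scaling, and 2 with the long-gene covariate. The 3 smallest p-values belonged to Dlg3, Gria2 and Grik5.

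Dlg3, which codes for the scaffold SAP102, had a lowest, median and highest level of 189, 204 and 209 CPM in SNI Mef2c and of 149, 167 and 196 CPM in SNI Gfp. The ranges overlapped, and the log2 fold change was 0.23 (SE 0.079, adjusted p = 0.199 by edgeR). Gria2 codes for GluA2, the subunit that makes AMPA receptors impermeable to calcium. It had 845, 889 and 973 CPM in SNI Mef2c and 720, 781 and 838 CPM in SNI Gfp. These ranges did not overlap, and the log2 fold change was 0.19 (SE 0.065, adjusted p = 0.211 by edgeR). Grik5 had 314, 343 and 368 CPM in SNI Mef2c and 255, 280 and 353 CPM in SNI Gfp (log2 fold change 0.25, SE 0.10, adjusted p = 0.279 by edgeR). The single negative value among the 13 belonged to Grin2d, with 36.5, 39.9 and 42.9 CPM in SNI Mef2c and 33.2, 54.2 and 78.5 CPM in SNI Gfp (log2 fold change -0.45, 95% interval -0.899 to -0.0014).

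Slc17a7 was 2.67 log2 units higher on average in SNI Mef2c than in SNI Gfp, with wide overlap (exact permutation test, p = 0.158, n = 6 each). The striatal markers also tended higher, with a median sum of 5415 CPM in SNI Mef2c and 3846 CPM in SNI Gfp, and overlapped. Values with the striatal mean as a further covariate are not reported here for this comparison. With Slc17a7 as a covariate the median log2 fold change of the 37 genes was 0.079, and 2 rather than 13 had an unadjusted p under 0.05. The value of Camk2a was 0.44 (SE 0.18) without that covariate and 0.20 (SE 0.12) with it, that of Gria3 0.38 (SE 0.17) and 0.12 (SE 0.088), and that of Grin2a 0.45 (SE 0.21) and 0.17 (SE 0.15). Gria2 kept 0.14 (SE 0.064) of its 0.19. The covariate and the group share libraries and were fitted together, so the values with and without it are a description.

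Injury was also compared under the Mef2c vector. Mef2c itself differed here, at 9.22 log2 CPM in SNI Mef2c and 7.77 in Sham Mef2c (exact permutation test, two-sided, p = 0.00216, n = 6 each). Injury and the level of Mef2c therefore cannot be told apart in this comparison. Between SNI Mef2c and Sham Mef2c 26 of the 37 genes were positive, with a median log2 fold change of 0.14 against -0.0019 over all genes. At an unadjusted p under 0.05 there were 13, of 3816 among all genes, and 0 passed after adjustment, where the share called over all genes was 0% (edgeR's quasi-likelihood test). Without SNI Mef2c library 1 the median was 0.083. The smallest p-values belonged to Grik5, Dlg3 and Dlgap3. Grik5 had 314, 343 and 368 CPM in SNI Mef2c and 216, 279 and 335 CPM in Sham Mef2c (log2 fold change 0.32, SE 0.10, adjusted p = 0.223 by edgeR). Dlg3 had 189, 204 and 209 CPM in SNI Mef2c and 135, 173 and 198 CPM in Sham Mef2c (log2 fold change 0.25, SE 0.079). Dlgap3 had 357, 382 and 450 CPM in SNI Mef2c and 227, 299 and 361 CPM in Sham Mef2c (log2 fold change 0.40, SE 0.13). In each of these genes the lowest SNI Mef2c library lay within the range of Sham Mef2c. This comparison shares its SNI Mef2c libraries with the one before. With Slc17a7 as a covariate the median of the 37 genes was 0.0044 and 4 had an unadjusted p under 0.05.

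**Figure D2:**
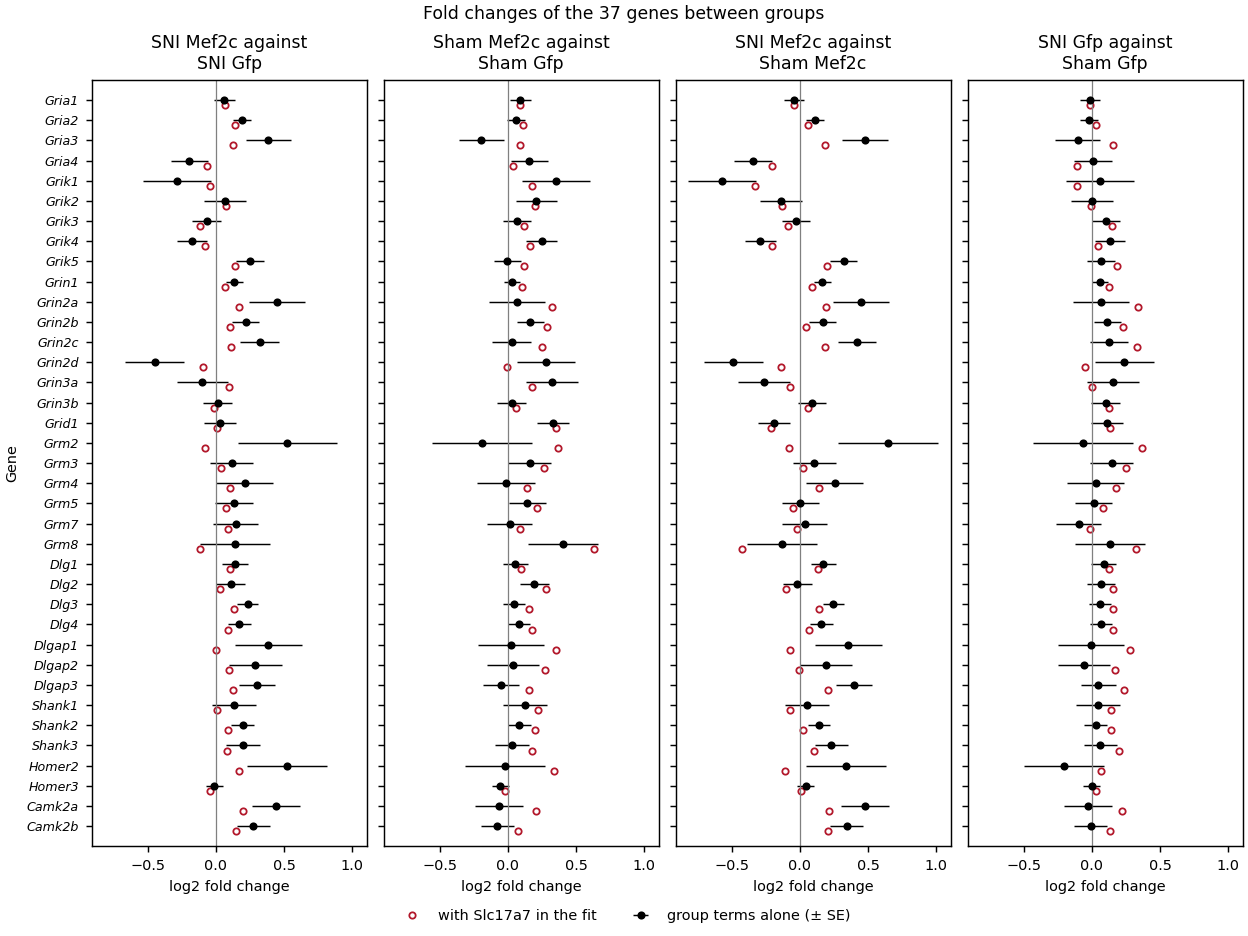
Log2 fold changes of the 37 genes in the group comparisons, without a covariate (bars are standard errors) and with Slc17a7 as a covariate (no bars). Values to the right of the line are higher in the group named first. Camk2a in SNI Mef2c against SNI Gfp stood at 0.44 without the covariate and at 0.20 with it.

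The interaction asks whether the vector effect differed between injured and sham mice. Mef2c itself was 1.86 log2 units higher with its vector in injured mice and 0.38 in sham mice. Injury and the rise in Mef2c therefore cannot be told apart here. No gene of the 37 passed, and the share called over all genes was 0% (edgeR's quasi-likelihood test, 3529 genes at an unadjusted p under 0.05, 3 of them on the list, or between 2 and 9 with 1 library left out in turn). Grik4 had an interaction of -0.42 log2 units (SE 0.16, adjusted p = 0.313), Gria3 of 0.58 (SE 0.23, adjusted p = 0.313) and Grin2d of -0.73 (SE 0.31, adjusted p = 0.314) by edgeR. Gria3, the AMPA subunit GluA3, had a lowest, median and highest level of 354, 390 and 659 CPM in SNI Mef2c, 276, 300.2 and 452 CPM in SNI Gfp, 250.2, 315 and 385 CPM in Sham Mef2c, and 271, 364 and 449 CPM in Sham Gfp. Its median was the highest in SNI Mef2c, and the ranges of all 4 groups overlapped. With Slc17a7 as a covariate the interaction of Gria3 was 0.035 (SE 0.13) and that of Grin2d -0.089 (SE 0.25). The median interaction of the 37 genes was 0.090 without and -0.10 with that covariate. Under limma-voom with quality weights 8 of the 37 genes passed, 3 positive (Gria3, Camk2a and Camk2b) and 5 negative (Grin2d, Grik1, Grin3a, Gria4 and Grik4), where 17.2% of all genes did.

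The genes were then followed along the cortical content of the punches, as the slope on log2 CPM of Slc17a7 with 1 term for each group. Of the 37 genes 18 passed (48.6%), 17 with a positive slope and 1 with a negative slope, where 17.9% of all 23737 genes passed, 8.86% with a positive and 9.04% with a negative slope (edgeR's quasi-likelihood test). The median slope of the 37 genes was 0.036 log2 CPM for each doubling of Slc17a7, against -0.00059 over all genes. By family, those that passed upward were 1 of 4 AMPA subunits (Gria3), 1 of 5 kainate subunits (Grik5), 4 of 7 NMDA subunits (Grin1, Grin2a, Grin2b and Grin2c), 1 of 6 metabotropic receptors (Grm2), 2 of 4 Dlg genes (Dlg3 and Dlg4), 3 of 3 SAPAP genes, 2 of 3 Shank genes (Shank2 and Shank3), 1 of 2 Homer genes (Homer2) and 2 of 2 kinase subunits. The gene that passed downward was the NMDA subunit Grin2d.

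Gria3 followed Slc17a7 most closely among the receptor subunits, with a slope of 0.097 (SE 0.012, adjusted p = 1.03e-05 by edgeR). Over 24 libraries its log2 CPM correlated with that of Slc17a7 with a Pearson r of 0.860 and a Spearman rho of 0.884 (permutation test, adjusted p = 0.000185 over 37 genes for both, from the smallest p the resamples can give). Within the groups r was 0.797 in SNI Mef2c, 0.956 in SNI Gfp, 0.923 in Sham Mef2c and 0.945 in Sham Gfp. Without SNI Gfp library 1 and SNI Mef2c library 1, the libraries farthest from the median of Slc17a7, r was 0.848.

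Grin2a and Grin2b code for the GluN2 subunits that dominate in the adult forebrain, and GluN2A rises during development of cortex. Grin2a had a lowest, median and highest level of 107, 127 and 174 CPM in SNI Mef2c, 69.9, 95.8 and 129 CPM in SNI Gfp, 55.4, 87.4 and 149.9 CPM in Sham Mef2c, and 76.0, 88.5 and 123 CPM in Sham Gfp. The groups overlapped widely, and the slope on Slc17a7 was 0.11 (SE 0.020, adjusted p = 0.000957 by edgeR), more than that of Grin2b at 0.046 (SE 0.011) or Grin1 at 0.025 (SE 0.0072), though these slopes were not tested against each other. Grin2c, the GluN2C subunit, which in forebrain is found in astrocytes among other cells, had a slope of 0.079 (SE 0.012, adjusted p = 0.000137 by edgeR). The 6 astrocyte markers, among them the glutamate transporter Slc1a3, had a median slope of 0.0036, and 0 of 6 passed. Of other astrocytic genes of glutamate uptake and use, the transporter Slc1a2 had a slope of 0.059 (SE 0.0092, adjusted p = 0.000151 by edgeR) and the glutamine synthetase Glul one of 0.025 (SE 0.0082, adjusted p = 0.0388 by edgeR).

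Grin2d moved the other way. Its slope was -0.11 (SE 0.023, adjusted p = 0.00207 by edgeR), with a Pearson r of -0.781 and a Spearman rho of -0.852 over 24 libraries (permutation test, adjusted p = 0.000278 and 0.000185). Within the groups r was -0.867 in SNI Mef2c, -0.870 in SNI Gfp, -0.877 in Sham Mef2c and -0.843 in Sham Gfp. It was the only gene of the 37 with a negative r in every group, and 15 genes had a positive r in every group. These correlations were computed for the 37 genes alone. The slope of Gria4, the AMPA subunit GluA4 of interneurons, was -0.044 (SE 0.018, adjusted p = 0.0996 by edgeR), that of Grin3a -0.058 (SE 0.026) and that of Grik1 -0.065 (SE 0.035), and these did not pass.

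**Figure D3:**
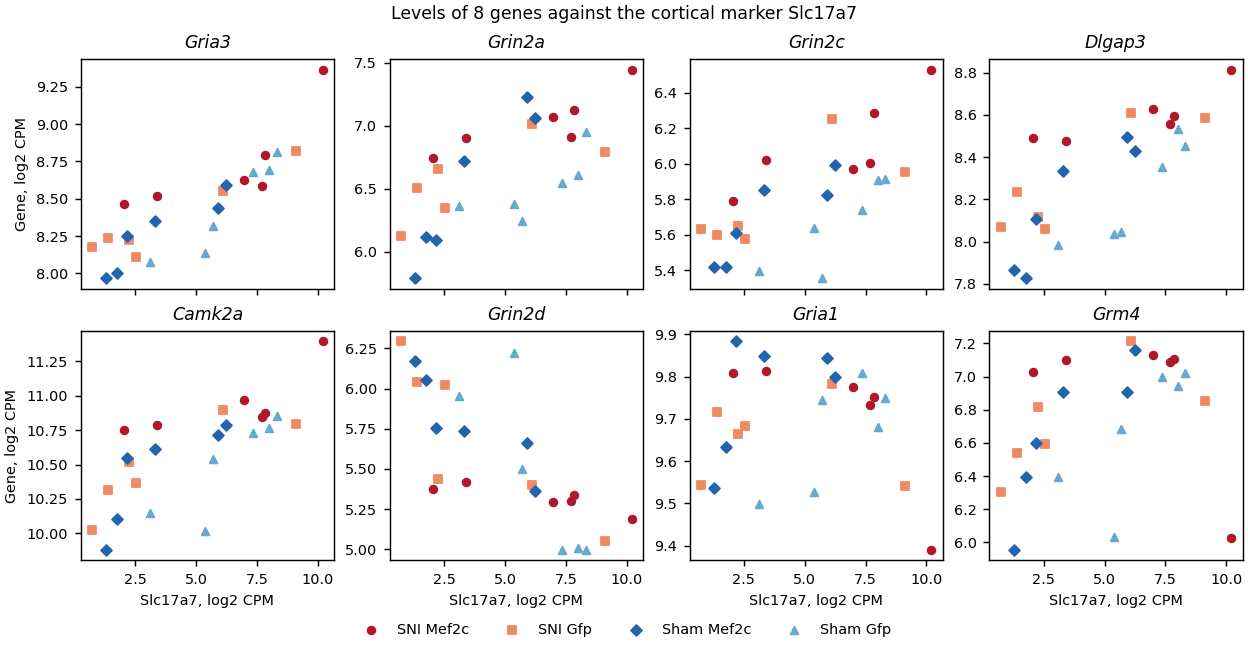
Levels of selected genes against Slc17a7, both in log2 CPM, with 1 point for each library and a colour for each group. Gria3 climbed with Slc17a7 within each of the 4 groups and Grin2d declined within each of them.

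The 3 steepest slopes were those of Grm2, Dlgap1 and Homer2. Grm2, the presynaptic metabotropic receptor of cortical afferents, had a lowest, median and highest level of 4.38, 8.09 and 28.1 CPM in SNI Mef2c, 4.15, 5.87 and 14.3 CPM in SNI Gfp, 5.05, 6.57 and 7.96 CPM in Sham Mef2c, and 4.99, 7.19 and 11.4 CPM in Sham Gfp. The value of 28.1 CPM came from SNI Mef2c library 1 and that of 14.3 CPM from SNI Gfp library 4, the 2 libraries with the most Slc17a7. Its slope was 0.17 (SE 0.036, adjusted p = 0.00187 by edgeR), and without these 2 libraries 0.082 (SE 0.033, adjusted p = 0.0919). Homer2, a Homer protein with a coiled coil that links Shank to metabotropic receptors, had 18.1, 23.1 and 76.0 CPM in SNI Mef2c, 14.96, 18.8 and 38.2 CPM in SNI Gfp, 19.5, 22.96 and 37.3 CPM in Sham Mef2c, and 18.3, 25.6 and 32.4 CPM in Sham Gfp. Its slope of 0.11 (SE 0.034, adjusted p = 0.0277 by edgeR) became 0.012 (SE 0.029, adjusted p = 0.828) without the same 2 libraries, and it did not pass without SNI Mef2c library 1 alone (0.060, adjusted p = 0.125). Dlgap1 had 163, 209 and 576 CPM in SNI Mef2c, 154, 183 and 311 CPM in SNI Gfp, 171, 186 and 289.9 CPM in Sham Mef2c, and 176, 195 and 241 CPM in Sham Gfp. Its slope of 0.12 (SE 0.024, adjusted p = 0.00148 by edgeR) became 0.058 (SE 0.018, adjusted p = 0.0251) without them.

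The kinase subunits, Dlgap3, Shank3 and Dlg4 passed also without these 2 libraries. Camk2a had a lowest, median and highest level of 1720, 1863 and 2698 CPM in SNI Mef2c, 1043, 1395 and 1905 CPM in SNI Gfp, 942, 1535 and 1766 CPM in Sham Mef2c, and 1034, 1593 and 1854 CPM in Sham Gfp. Its slope was 0.095 (SE 0.016, adjusted p = 0.00032 by edgeR), and 0.10 (SE 0.020, adjusted p = 0.00168) without them. Camk2b, the beta subunit, which binds actin, had 0.053 (SE 0.014) and, without them, 0.077 (SE 0.014). Dlgap3 had 0.072 (SE 0.011) and 0.081 (SE 0.014), Shank3 0.053 (SE 0.014) and 0.076 (SE 0.014), and Dlg4, which codes for PSD-95, 0.033 (SE 0.010) and 0.046 (SE 0.011). Without SNI Gfp library 4 alone the slope of Dlg4 did not pass (0.034, adjusted p = 0.0637 by edgeR). Without these 2 libraries 24 of the 37 genes passed, 21 upward and 3 downward, against 18.2% of all genes.

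The slopes differed in number between the surgeries. Among the injured libraries alone 8 of the 37 genes passed, where 5.63% of all genes did, and among the sham libraries alone 22 passed, where 15.3% did. In both sets 5 passed, which is 5 of the 8 and 5 of the 22, and 27 of the 37 had the same sign. The overlap and the signs were not counted over all genes. Gria3 had a slope of 0.085 (SE 0.015) among the injured and 0.13 (SE 0.016) among the sham libraries, and Camk2a of 0.074 (SE 0.016) and 0.14 (SE 0.028). Grm4, a presynaptic receptor with high levels in striatum, had 0.0066 (SE 0.035) among the injured and 0.16 (SE 0.033) among the sham libraries. The difference of the slopes between the surgeries was not tested.

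Slc17a7 and the striatal markers were themselves related within groups. The Pearson r of log2 CPM of Slc17a7 with the mean of the 12 striatal markers was 0.670 in SNI Gfp, 0.814 in Sham Mef2c and 0.795 in Sham Gfp, and -0.583 in SNI Mef2c, where library 1 had the most Slc17a7 and the fewest striatal transcripts. Over 24 libraries r was 0.205 and rho 0.404 (permutation test, p = 0.337 and 0.0499), and r was 0.517 without SNI Gfp library 1 and SNI Mef2c library 1. Both measures were therefore fitted together.

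In that fit the terms that passed depended on SNI Mef2c library 1, and values are given with and without it. With all libraries the Slc17a7 term passed for 21 of the 37 genes, 20 upward and 1 downward, where 24.4% of all genes passed. The striatal term passed for 24 of the 37 genes, 14 upward and 10 downward, where 34.8% of all 23726 genes passed, 16% upward and 18.7% downward (edgeR's quasi-likelihood test for both terms). Both terms passed for 13 genes, of which 7 were positive on both, and neither for 5. This overlap of the terms was not counted over all genes. The 8 genes with the Slc17a7 term alone were the NMDA subunits Grin1, Grin2a, Grin2b and Grin2c, with Gria3, Camk2a, Dlgap3 and Shank2.

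Without SNI Mef2c library 1, whose striatal mean was 6.44 log2 CPM where that of the other libraries was at least 7.00, the Slc17a7 term passed for 5 of the 37 genes, where 4.62% of all genes passed, and the striatal term for 28, where 28.4% did. The 5 were Gria3, Grm2, Grm8, Dlgap1 and Dlgap3, all upward, and they passed on the striatal term as well, so 0 genes had the Slc17a7 term alone. Of the 8 named above, Camk2a, Grin2a, Grin2b and Shank2 then passed on the striatal term alone, Gria3 and Dlgap3 on both, and Grin1 and Grin2c on neither. The striatal slope of Camk2a was 0.13 with the library and 0.60 without it (adjusted p = 0.169 and 7.55e-07 by edgeR), and its Slc17a7 term 0.092 and 0.033 (adjusted p = 0.000134 and 0.0501). Gria3 had a striatal slope of -0.032 with the library and 0.26 without it (adjusted p = 0.725 and 0.0122), and it had -0.18 among the injured and 0.30 among the sham libraries alone (adjusted p = 0.0419 and 0.0429). The striatal slope was 0.15 with and 0.495 without the library for Grin2a, 0.10 and 0.28 for Grin2b, 0.014 and 0.23 for Shank2, 0.12 and 0.31 for Dlgap3, and 0.057 and 0.25 for Gria2, and each of these 5 passed without the library alone. The Slc17a7 term of Grin2c was 0.078 with the library and 0.050 without it (adjusted p = 0.000107 and 0.0652).

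The metabotropic receptors split on the striatal term, which passed for 6 of 6 with and without that library. The slopes below are those with all libraries. Grm4 had the largest slope, 0.69 (SE 0.037, adjusted p = 1.76e-11 by edgeR), and Grm7, Grm3 and Grm5 had 0.50 (SE 0.059), 0.43 (SE 0.066) and 0.38 (SE 0.058). Grm5 codes for the postsynaptic receptor mGluR5 of medium spiny neurons, and Grm3 is found in glia as well as neurons. Grm2 and Grm8 went the other way, with -0.67 (SE 0.098) and -0.65 (SE 0.081), while both had positive Slc17a7 terms of 0.19 (SE 0.021) and 0.087 (SE 0.017). Grm4 had 65.2, 137 and 140.0 CPM as lowest, median and highest level in SNI Mef2c, with library 1 far below the others, which began at 131 CPM.

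Among the ionotropic subunits Gria1 had a striatal slope of 0.21 (SE 0.033) and a Slc17a7 term of -0.0089 (SE 0.0066). The receptor gene highest per kb of exon thus passed on the striatal term and not on that of Slc17a7. Grik2, the kainate subunit GluK2, had a striatal slope of 0.40 (SE 0.084) and Grik5 of 0.14 (SE 0.047). Grik1, Grin3a, Grin2d, Gria4 and Grik3 had negative striatal slopes of -0.63 (SE 0.091), -0.43 (SE 0.079), -0.33 (SE 0.089), -0.28 (SE 0.067) and -0.21 (SE 0.058). Among the scaffolds all 4 Dlg genes were positive, between 0.12 for Dlg3 and 0.26 for Dlg1. Shank3, of which mutations are linked to autism, had 0.28 (SE 0.036) while Shank1 had -0.46 (SE 0.036), and the SAPAP genes likewise split into Dlgap2 at 0.295 (SE 0.087) and Dlgap1 at -0.46 (SE 0.061).

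**Figure D4:**
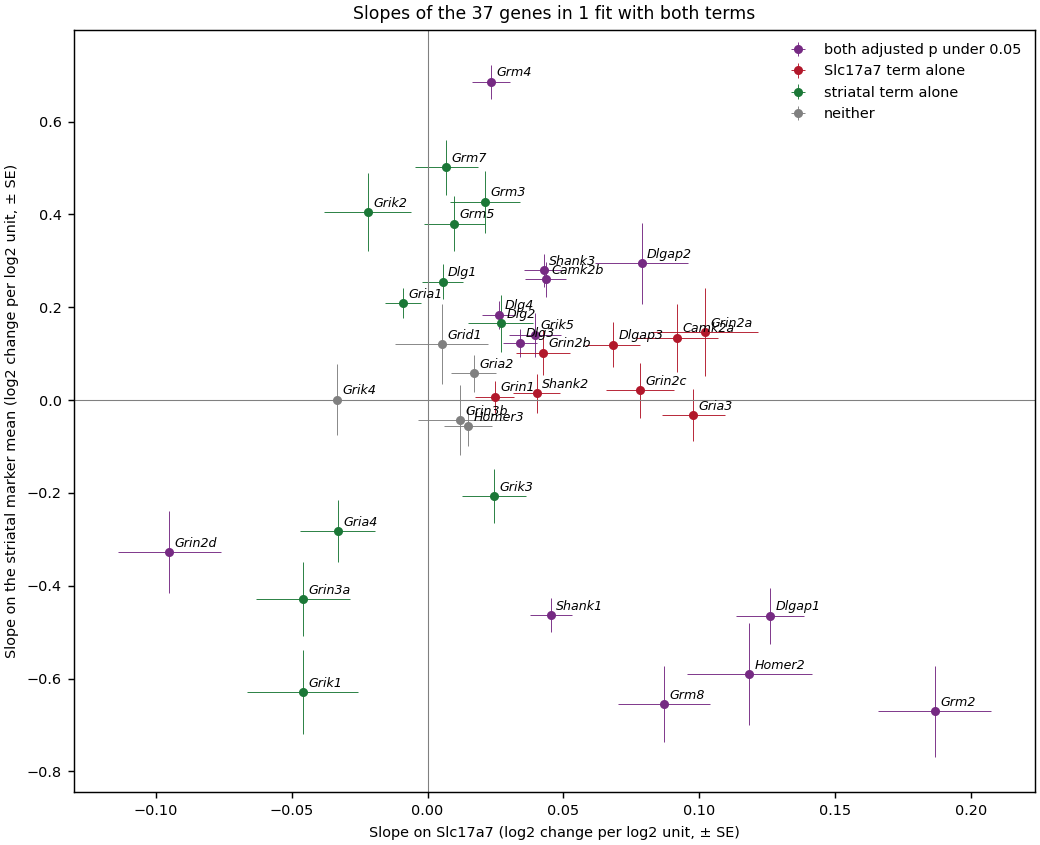
Slopes of the 37 genes in the fit with both terms, on Slc17a7 (horizontal axis, log2 CPM per log2 CPM) and on the mean of the striatal markers (vertical axis, same unit), with standard errors as bars, colours for the terms that passed, and all libraries in the fit. Without SNI Mef2c library 1, 0 of the 37 genes had the Slc17a7 term alone. Grm4 stands highest at 0.69 on the striatal axis and Grm2 farthest to the right at 0.19 with -0.67 on the striatal axis.

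Among the genes that passed on the striatal term with all libraries, 3 did not pass without SNI Mef2c library 1. The slope of Homer2 was -0.59 (SE 0.11, adjusted p = 0.00027 by edgeR) with it and -0.50 (adjusted p = 0.101) without it, that of Grik2 0.40 (adjusted p = 0.000707) and 0.25 (adjusted p = 0.217), and that of Dlg2 0.17 (adjusted p = 0.0387) and 0.15 (adjusted p = 0.362). Others moved by more than 1.5 times and passed both ways. With and without the library the slope was 0.14 and 0.38 for Grik5, -0.33 and -0.68 for Grin2d, -0.28 and -0.59 for Gria4, -0.21 and -0.36 for Grik3, 0.295 and 0.59 for Dlgap2, 0.12 and 0.25 for Dlg3, and 0.26 and 0.45 for Camk2b. Leaving out Sham Mef2c library 4 or Sham Gfp library 3 took the call of Grik5 away (adjusted p = 0.0602 and 0.0578). Among the sham libraries alone 11 of the 37 genes passed on this term, where 9.74% of all genes did.

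Partner proteins of these receptors were read from a list of 40 further genes for auxiliary subunits, other scaffolds, transporters and enzymes of glutamate. In each of the 5 group comparisons 0 of the 40 passed (edgeR's quasi-likelihood test, backgrounds as above). Between SNI Mef2c and SNI Gfp their median log2 fold change was 0.13, and the 3 smallest p-values belonged to Slc1a2, the astrocytic transporter GLT-1 (0.36, SE 0.11, adjusted p = 0.154), Shisa6, an auxiliary AMPA subunit (-0.52, SE 0.17), and Cnksr2, a scaffold of the postsynaptic density (0.396, SE 0.16). Between SNI Mef2c and Sham Mef2c the 3 smallest belonged to Shisa6 (-0.54, SE 0.17), Slc1a2 (0.32, SE 0.11) and Cnksr2 (0.47, SE 0.16). On Slc17a7 itself, 14 of the other 39 passed upward and 1 downward, where 8.86% and 9.04% of all genes did. The smallest p-values were those of Slc1a2 (slope 0.059, SE 0.0092), the spine protein Ppp1r9b (0.061, SE 0.0095), Iqsec2 (0.065, SE 0.010) and Cnksr2 (0.082, SE 0.016). Homer1, the relative of Homer2 and Homer3, had 0.089 (SE 0.022, adjusted p = 0.00774 by edgeR). On the striatal term 15 of the 40 passed upward and 11 downward, where 16% and 18.7% of all genes did. They were led by Akap5, a kinase anchor (0.87, SE 0.047), and by Camk2d, a further kinase subunit (-0.78, SE 0.053).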

How the data were processed

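RNA of mouse nucleus accumbens was sequenced in 24 libraries, after TRIzol extraction and library preparation with Illumina's stranded mRNA kit, per the labels' protocols. The authors deposited raw counts per gene and FPKM. Counts came from featureCounts on mm10, per the submitters' processing notes, while for the aligner, annotation and version nothing is stated (not given in the sources used here). Of the deposited FPKM values above 0, 100% matched count over total and a gene's single length (relative tolerance 1e-06). That length was the gene span for 42625 of 42625 genes compared. Introns therefore appear to have been counted, which was not tested on reads. Of the IDs, 55141 matched GENCODE M21, and 3 of the 37 genes (Dlg2, Shank2 and Shank3) matched without the ID version. FPKM was used for this check only.

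Counts were tested with edgeR 4.0.16 in R 4.3.3: filterByExpr, TMM scaling, a robust quasi-likelihood fit with 1 term for each of 4 groups (20 residual degrees of freedom), two-sided p-values, Benjamini-Hochberg adjustment over all genes within a comparison, threshold 0.05. CPM are TMM-scaled and log2 CPM have a prior count of 2. Slopes use log2 CPM of Slc17a7, or with it the mean log2 CPM of 12 striatal markers, beside the group terms. The striatal slope was added after seeing the data. Permutation tests of correlations drew 100000 resamples. The fit was tested on simulated data. No pair of libraries within a group was a copy (60 pairs, smallest chi-square per degree of freedom 3.22). The genes, lists and tests were chosen with earlier results of these data known. Values by group are printed for the 3 smallest p in a comparison without calls and the 6 largest slopes in each direction among those that passed. Alternatives were other scalings, filters, DESeq2 1.42.0, limma-voom 3.58.1, covariates, a replicate block and leaving out libraries. Some results of the list of further genes are not reported here.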

Additional observations from a re-analysis of the deposited data

Results flagged for a closer look

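Within each group of 6 the highest and the lowest library were set against the other 5 for each of the 37 genes. In 28 of 148 gene and group combinations (18.9%) 1 library lay so far out that its gap to the nearest other exceeded 0.625 of the whole range, where chance gives about 1 in 20. The 37 genes share libraries, so these values are not independent. The same share was not counted over all genes, so it is not a trait of these genes in particular.

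SNI Mef2c library 1 accounts for 18 of the 28. It stood highest in its group for Grm2 at 28.1 CPM (the other 5 between 4.38 and 8.35), Grm8 at 32.4 CPM (9.50 to 12.4), Homer2 at 76.0 CPM (18.1 to 27.5), Dlgap1 at 576 CPM (163 to 232) and Shank1 at 694 CPM (288 to 342). It was also highest for Gria3 at 659 CPM, Grik3 at 216 CPM, Shank2 at 249 CPM and Camk2a at 2698 CPM. It stood lowest for Grm4 at 65.2 CPM (131 to 140.0), Grm7 at 183 CPM (309 to 344), Grm5 at 340.1 CPM (519 to 578), Grm3 at 68.1 CPM (104 to 121) and Grik2 at 151 CPM (281 to 336). It was also lowest for Gria1 at 671 CPM, Dlg1 at 195 CPM, Dlg2 at 498 CPM and Shank3 at 326 CPM. In the same library Slc17a7 had 1175 CPM, the most of all 24 libraries, and the striatal mean was 6.44 log2 CPM, the least of all. Their part in these values was not tested.

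Sham Mef2c library 6 accounts for 6 and was the highest of its group in each. Grid1 had 203 CPM there (the other 5 between 108 and 114), Grik2 467 CPM, Grik4 80.8 CPM, Dlg2 839 CPM, Dlgap1 289.9 CPM and Homer3 14.6 CPM. Genes with a span of at least 100 kb took 24.4% of its counts.

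SNI Gfp library 4 was the highest of its group for Grm2 at 14.3 CPM (4.15 to 7.65) and Dlgap1 at 311 CPM (154 to 188), and its Slc17a7, at 558 CPM, was the highest of that group. Grid1 was lowest in SNI Gfp library 6 at 99.9 CPM (108 to 112) and highest in Sham Gfp library 4 at 112 CPM (94.3 to 100.5).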

How the results depend on the processing

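In the 5 group comparisons 0 of the 37 genes passed by edgeR under the other scalings, count filters, compared groups alone, the replicate block, the long-gene covariate and every library left out in turn, and 0 by DESeq2. Limma-voom with quality weights gave 1 for SNI Gfp against Sham Gfp, 4 for Sham Mef2c against Sham Gfp (Grin3a, Grik1, Grik4 and Grin2d, where 18.6% of all genes passed) and 8 for the interaction. For Sham Mef2c against Sham Gfp the cortical covariate gave 1 and the cortical and striatal covariates 8. The slope on Slc17a7 passed for 11 genes with the long-gene covariate, 11 with Slc17a7 as linear CPM, 8 among the SNI libraries alone and 5 with the striatal covariate and without SNI Mef2c library 1, and the striatal slope for 11 among the Sham libraries alone. With linear CPM 7 of the 18 genes of the reported fit were kept, and Grik3, Grm8, Shank1 and, downward, Grik2 were new. Grik4 was new, downward, with the long-gene covariate and among the SNI libraries, and Grm8 in the fit that gave 5. For the long-gene and linear CPM fits the shares over all genes are not reported here. The causes were not tested. With 1 library left out the slope on Slc17a7 passed for 16 to 23 genes and the striatal slope for 22 to 28, and the group comparisons for 0. Gria3 passed on Slc17a7 in each of 40 alternatives and Grin2c, Camk2a, Dlgap1 and Dlgap3 in 39, while Dlg4 and Homer2 were lost in 10 each, and Dlg2 on the striatal term in 18 of 36. These alternatives include each of the 24 libraries left out in turn, which change the fit little. Among the Sham libraries alone the striatal slopes of Dlg2 and Grik2 turned negative (-0.099 and -0.092). Libraries with the same replicate number did not deviate together (36 pairs, r between -0.43 and 0.28, median -0.020), 1 library correlated best with its own number, and with the replicate block the slope on Slc17a7 passed for 16 genes and the striatal slope for 22. Depth limits Grin3b most, with 1969 counts over all libraries. The covariates, libraries left out together, separate surgeries, linear CPM and the striatal slope were chosen after seeing the data, except the cortical and long-gene covariates taken singly.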
